A study of Mus musculus with 8 samples.

Results

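Secretagogue signalling in the pancreas was described through 10 genes, chosen by symbol from 11789 genes listed in a table of whole-pancreas RNA sequencing. They encode 5 receptors of the hormones and transmitters that start secretion (Sctr, Cckar, Chrm3, Chrm1 and Vipr1), the 3 channels that release calcium from the endoplasmic reticulum (Itpr1, Itpr2 and Itpr3), and a pair that lets calcium back into the cell once that store is empty (Stim1 and Orai1). All 10 were listed, and all 10 passed the filter on low values, a mean of at least 10 normalized counts over the 8 libraries. Sctr passed only through its level in the group where it was higher, as given below. The libraries came from mice aged 6 weeks, 4 labelled wild type and 4 labelled Daxxfl/flPdx1-CreTg, homozygous for floxed Daxx and carrying Pdx1-Cre, called Daxx deleted here. The Pdx1 promoter drives Cre in the embryonic cells that give rise to pancreatic acini, ducts and islets, so vessels, stroma, nerves and immune cells keep Daxx. Neither Pdx1-Cre mice with intact Daxx nor floxed mice without Cre are among the groups, so effects of the deletion, the transgene and the floxed alleles cannot be told apart. Per the design text each genotype has 2 female and 2 male mice, but the sex of a given library is not labelled.

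Pancreatic acinar cells release digestive enzymes when cholecystokinin binds its receptor Cckar or acetylcholine binds the muscarinic receptors Chrm3 and Chrm1. These receptors act through Gq proteins and phospholipase C, which makes inositol trisphosphate (IP3), and IP3 opens the Itpr channels so that stored calcium drives the fusion of zymogen granules. Stim1 senses the emptied store and opens the plasma membrane channel Orai1. Secretin and vasoactive intestinal peptide act through Sctr and Vipr1 and cyclic AMP instead, and secretin is best known for the bicarbonate-rich fluid that duct cells secrete.

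The libraries held 7705789 to 10517508 reads over the listed genes, of which 74.7% to 80.3% fell on the 20 most abundant genes. Daxx itself ranged from 39.7 to 58.7 normalized counts (wild type) and from 23.3 to 32.5 (Daxx deleted), so the targeted gene follows the labels. The tissue label was checked against markers. All 10 acinar markers were listed, with a summed level of 2552720 to 3293528 in wild-type and 2156035 to 3276523 in Daxx-deleted libraries. Of other cell types, 14 of 15 ductal, 11 of 12 islet, 9 of 10 stromal, 7 of 7 endothelial and 7 of 7 myeloid markers were listed, against 2 of 8 nerve and glia and 1 of 7 lymphocyte and plasma cell markers. In whole tissue, fewer cells of a type and less RNA per cell cannot be told apart.

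The levels of the 10 genes per length spanned a wide range, with the cholecystokinin receptor far above the rest. Cckar had a mean of 758.6 normalized counts per kb of exon over the 8 libraries, above 99.2% of listed genes. Itpr2 followed at 34.3 per kb, so the Cckar level was 22.1-fold that of the next gene, and their ranges did not overlap. Below it came Itpr3 at 28.8, Vipr1 at 23.9, Chrm3 at 21.1, Stim1 at 18.2, Orai1 at 11.5, Itpr1 at 9.53, Sctr at 8.12 and Chrm1 at 2.19 normalized counts per kb. From Itpr2 down, the ranges over libraries of every pair of neighbours in this order overlapped, although Itpr2 lay above Itpr3 in 8 of 8 libraries. The order in the middle depends on the gene model: with the longest annotated transcript as the length, Stim1 moved from rank 6 to rank 3, while Cckar and Itpr2 kept ranks 1 and 2, and Sctr and Chrm1 kept ranks 9 and 10.

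**Figure D1:**
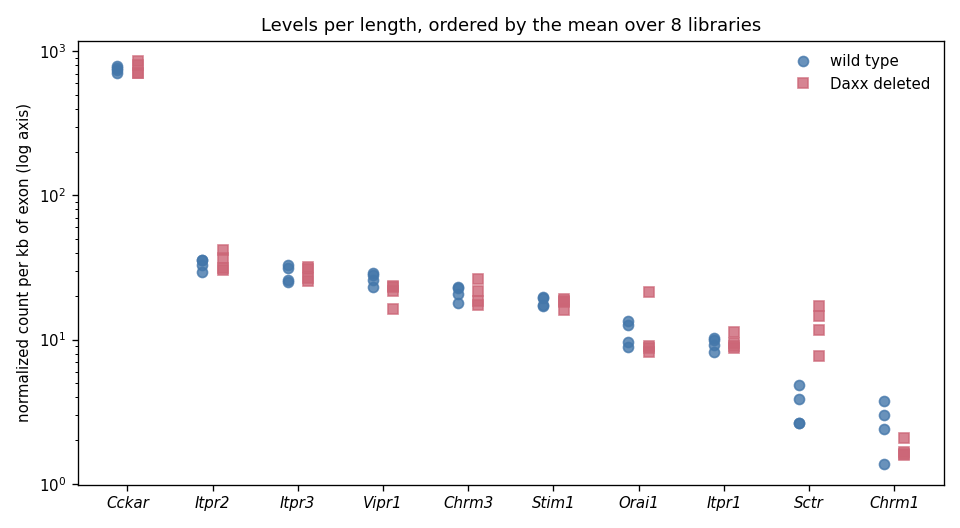
Normalized read count per kb of exon on a log axis for the 10 genes, ordered by the mean over the 8 libraries, with 1 point per library (circles wild type, squares Daxx deleted). Cckar stands alone near 758.6, Chrm1 is lowest at 2.19, and Sctr is the gene whose genotypes are visibly apart.

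Promoter windows from RefSeq (build GRCm38.p6, 250 bases before to 50 after the start) were found for 6 of the 10 genes, Chrm3, Vipr1, Itpr2, Itpr3, Stim1 and Orai1. Sctr, Cckar, Chrm1 and Itpr1 had no entry. The windows of 4 genes are shown: the muscarinic receptor gene, with the lowest GC content of the 6, the 2 most abundant release channels and the entry channel. The windows not shown had higher GC content than these, 73.7% for Vipr1, with 4 GC boxes, and 78.7% for Stim1, with 8. Each is printed 5′ to 3′ on the strand of the gene. Capitals mark the GC box (GGGCGG) and the CCAAT box (CCAAT), searched on both strands.
Chrm3: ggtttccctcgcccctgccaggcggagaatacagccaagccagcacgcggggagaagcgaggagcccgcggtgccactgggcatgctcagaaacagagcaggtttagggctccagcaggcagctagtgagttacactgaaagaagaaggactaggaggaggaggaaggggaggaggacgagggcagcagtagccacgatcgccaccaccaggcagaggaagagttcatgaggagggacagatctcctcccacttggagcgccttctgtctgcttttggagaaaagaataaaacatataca
Itpr2: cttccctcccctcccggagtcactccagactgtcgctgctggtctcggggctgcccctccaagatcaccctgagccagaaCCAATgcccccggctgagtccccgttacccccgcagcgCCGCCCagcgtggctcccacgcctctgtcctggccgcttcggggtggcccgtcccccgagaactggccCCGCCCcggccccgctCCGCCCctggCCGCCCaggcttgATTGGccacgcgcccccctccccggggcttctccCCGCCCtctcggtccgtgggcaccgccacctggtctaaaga
Itpr3: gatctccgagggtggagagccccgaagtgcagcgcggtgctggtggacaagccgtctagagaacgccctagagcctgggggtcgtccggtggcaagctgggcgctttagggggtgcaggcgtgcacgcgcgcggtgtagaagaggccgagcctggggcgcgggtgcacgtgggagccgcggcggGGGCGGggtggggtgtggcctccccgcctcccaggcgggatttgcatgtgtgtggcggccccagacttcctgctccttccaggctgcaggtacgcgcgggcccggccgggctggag
Orai1: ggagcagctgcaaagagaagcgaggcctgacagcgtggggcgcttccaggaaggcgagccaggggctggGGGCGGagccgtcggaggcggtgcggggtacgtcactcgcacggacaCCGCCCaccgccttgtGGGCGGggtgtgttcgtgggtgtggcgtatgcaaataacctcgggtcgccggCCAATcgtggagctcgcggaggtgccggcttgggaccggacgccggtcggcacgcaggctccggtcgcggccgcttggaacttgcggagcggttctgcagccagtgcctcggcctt
These windows lie at chr13:10360754-10361053 on the minus strand (Chrm3), chr6:146502174-146502473 on the minus strand (Itpr2), chr17:27057054-27057353 on the plus strand (Itpr3) and chr5:123014824-123015123 on the plus strand (Orai1). GC content was 57.3% for Chrm3, 73.3% for Itpr2, 72.3% for Itpr3 and 70.3% for Orai1, against a median of 52.7% over 32851 windows. The Chrm3 window holds no GC box, Itpr2 holds 5, Itpr3 holds 1 and Orai1 holds 3. Over all 6 windows a GC box was found in 5, against 35.7% of all promoter windows, and a CCAAT box in 3, against 37.4%. The TATA box letters TATAAA (13.6% of all windows) and the cyclic AMP response element TGACGTCA (1.79%) were found in 0 of the 6. CANNTG, the E-box, was found in 5 of the 6 (72.3% of all windows) and GGAAA, the core of NFAT sites, in 1 (61.3%). Matches may overlap one another and describe letters only.

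Between genotypes, 9 of the 10 genes had overlapping values, and the secretin receptor was the gene that did not. None of the 10 was called by limma at an adjusted p under 0.05, where 0% of the 10468 tested genes were called. Daxx, the targeted gene, was among the genes not called, although its groups did not overlap and its log2 fold change was -0.74. The lack of a call by limma therefore does not show that a gene is unchanged. At an unadjusted limma p under 0.05 there were 2 of the 10, Sctr and Vipr1, against 2.88% of all tested genes. By edgeR's quasi-likelihood test 0 of the 10 were called, with 1 below 0.05 before adjustment, and DESeq2 gave the same numbers; over all tested genes edgeR called 0% and DESeq2 called 0.00955%. The median absolute log2 fold change was 0.04 over the 10 genes and 0.12 over all tested genes. Both figures are descriptions, and the 10 genes were chosen with earlier results for Sctr known.

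**Figure D2:**
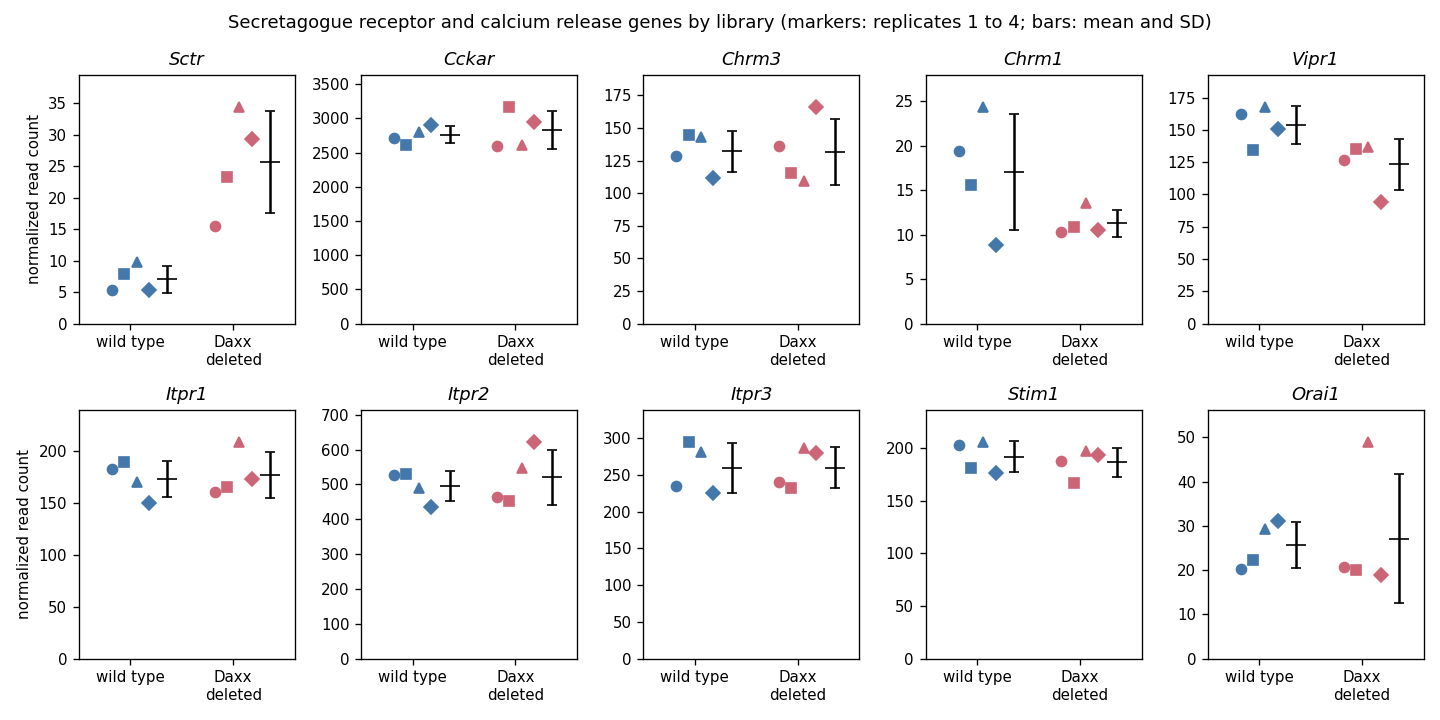
Normalized read counts of the 10 genes in each library (blue wild type, red Daxx deleted; circle, square, triangle and diamond are replicates 1 to 4), with mean and SD of 4 libraries beside each group and every axis starting at 0. The groups are apart in Sctr, and a single Daxx-deleted library stands high in Orai1.

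The secretin receptor gene Sctr (ENSMUSG00000026387.15, chromosome 1, 120006894 to 120063536, GRCm38) separated the genotypes, with all Daxx-deleted libraries above all wild-type ones. Normalized counts were 5.29, 7.83, 9.74 and 5.31 in wild-type replicates 1 to 4, and Daxx-deleted replicates 1 to 4 had 15.5, 23.3, 34.4 and 29.4. The lowest Daxx-deleted value thus lay above the highest wild-type value, a pattern found in 0.831% of all tested genes, and in 1.04% in the other direction, which 0 of the 10 showed. The means were 7.04 ± 2.16 and 25.6 ± 8.14 (SD, n = 4), a log2 difference of 1.71 ± 0.35 (SE) and a 95% interval of 0.97 to 2.46. The exact two-sided permutation test gave p = 0.0286, the smallest that 70 relabellings allow. Sctr ranked 2 by unadjusted limma p among 10468 genes, and its adjusted p was 0.9997 by limma, 0.539 by edgeR and 0.0619 by DESeq2, so it was not called by any of these tests. With a pseudocount of 8 the log2 difference was 1.14. The wild-type mean lay under the filter of 10, so Sctr entered the test only through its Daxx-deleted libraries. Its rank and the shares of tested genes set beside it are therefore descriptions. Without the filter its adjusted limma p was 0.738. The difference rests on few reads, 28 in all over the wild-type libraries and 104 over the Daxx-deleted libraries.

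The summed ductal markers overlapped between genotypes where Sctr did not. Of the 15 ductal markers 14 were listed and none was at 0 in any library. Their summed level ran from 2067 to 2251 (wild type) and from 2066 to 2356 (Daxx deleted). Of 12 tested, 5 had a log2 fold change above 0 and 7 below, with a median of -0.02, and 0 had an unadjusted limma p under 0.05. The sum is weighted towards its largest members, which moved in opposite directions. Muc1 had 782.1 ± 89.2 normalized counts (wild type) and 668.5 ± 93.0 (Daxx deleted), and Pkhd1 had 580.5 ± 46.6 and 631.6 ± 71.7. Krt19, a keratin of duct cells, had 70.6 ± 10.7 normalized counts (wild type) and 69.9 ± 8.26 (Daxx deleted), and Sox9, a ductal transcription factor, had 59.0 ± 8.64 and 57.4 ± 4.31. Cftr, the chloride channel of secretin-driven fluid, was below the filter, with 10.1 ± 4.404 and 5.46 ± 2.72. The log2 ratio of Sctr to the summed ductal markers lay between -8.73 and -7.83 for wild type, and for Daxx deleted between -7.25 and -5.95. As that sum varied little, the ratio repeats the separation of Sctr and is no separate support for it.

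The difference in Sctr was present at both levels of Y-linked reads. As its groups did not overlap, any split with both genotypes in each part would show this, so it is no separate support. The Y-linked genes Ddx3y, Eif2s3y, Kdm5d and Uty were near 0 in replicates 1 and 2 of each genotype and high in replicates 3 and 4. Where they were near 0 the mean Sctr level over 2 libraries was 6.56 for wild type and 19.4 normalized counts for Daxx deleted, and where they were high it was 7.52 and 31.9. With the mean Y-linked level as a covariate the log2 fold change was 1.72 (limma adjusted p = 0.845).

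The cholecystokinin receptor gene Cckar (ENSMUSG00000029193.7, chromosome 5, 53697776 to 53707705) carried most receptor reads and had similar means in both genotypes. Wild-type libraries had 2718, 2611, 2804 and 2901 normalized counts and Daxx-deleted libraries 2589, 3161, 2610 and 2951. Both the highest and the lowest library were Daxx deleted. The means were 2759 ± 123.7 and 2828 ± 277.2 (SD, n = 4), for a log2 fold change of 0.03 ± 0.10 (SE; 95% interval -0.18 to 0.24). In linear terms that interval runs from 0.882-fold to 1.18-fold, the narrowest of the 10 genes, and it bounds the size of a difference without showing that there is none. The coefficients of variation were 4.48% (wild type) and 9.80% (Daxx deleted), against 1.89% and 1.86% from counting error alone.

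The muscarinic receptors differed from each other in level, Chrm3 above Chrm1, and each overlapped between genotypes. Chrm3, which encodes the main muscarinic receptor of acinar cells (ENSMUSG00000046159.16, chromosome 13, 9875486 to 10360847), had normalized counts of 128.7, 144.8, 143.1 and 111.6 in wild-type and 136.3, 115.8, 109.4 and 165.9 in Daxx-deleted libraries. The groups overlapped, with Daxx-deleted replicate 4 above all wild-type libraries and Daxx-deleted replicate 3 just below them. The log2 fold change was -0.01 ± 0.16 (SE, 95% interval -0.35 to 0.32), a sign that turned with equal library totals, edgeR and DESeq2. Chrm1, its relative (ENSMUSG00000032773.9, chromosome 19, 8663789 to 8683587), stood at 19.4, 15.7, 24.3 and 8.85 in wild-type and 10.3, 10.8, 13.5 and 10.5 in Daxx-deleted libraries. The Daxx-deleted values sat within the lower part of the wild-type range, with wild-type replicate 4 the lowest of all. Its log2 fold change was -0.48 ± 0.35 (SE, 95% interval -1.22 to 0.26), from 69 wild-type and 46 Daxx-deleted reads in all. It was -0.74 without wild-type replicate 4 and -0.29 without wild-type replicate 3. On the opposite strand Gm22820, a small RNA gene, shares 5.07% of the exon length of Chrm1, and whether reads were counted by strand is not stated. The log2 ratio of Cckar to Chrm3 per kb averaged 5.16 ± 0.23 in wild type and 5.20 ± 0.29 in the other group (SD, n = 4, exact permutation p = 0.8286).

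Vipr1, which encodes a receptor of vasoactive intestinal peptide (ENSMUSG00000032528.5, chromosome 9, 121642716 to 121672954), had the second smallest unadjusted p of the 10. Wild-type libraries had 162.1, 134.3, 167.5 and 150.5 normalized counts and Daxx-deleted libraries 127.0, 135.0, 136.4 and 94.5. The groups overlapped only at wild-type replicate 2, which lay just under Daxx-deleted replicates 2 and 3, and Daxx-deleted replicate 4 was lowest. The means were 153.6 ± 14.7 and 123.2 ± 19.6 (SD, n = 4), 80.2% of the wild-type level. The log2 fold change was -0.33 ± 0.15 (SE, 95% interval -0.64 to -0.01), with an unadjusted limma p of 0.0454, an adjusted limma p of 0.9997 and an exact permutation p of 0.0857. Without Daxx-deleted replicate 4 the log2 fold change was -0.20, and with equal library totals it was -0.20 where the median of all genes was 0.11. Vipr2, the related receptor, had 133.2 ± 36.7 and 127.3 ± 10.7 normalized counts.

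**Figure D3:**
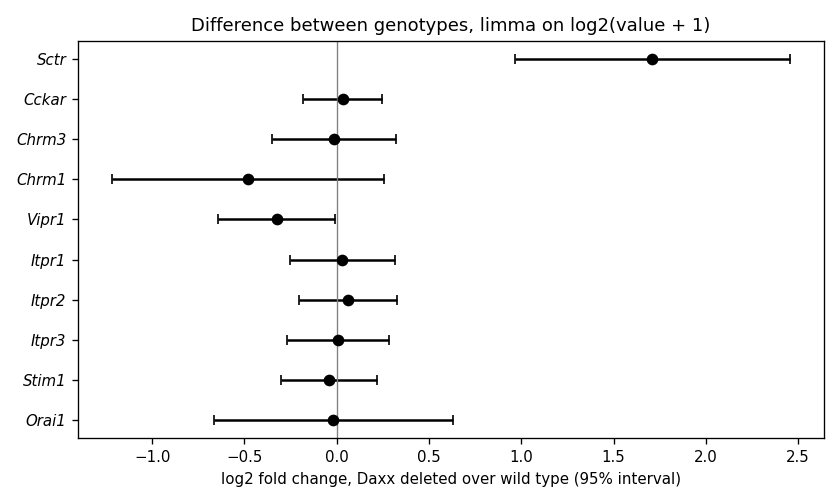
Log2 fold change of each gene, Daxx deleted over wild type, from limma on log2(normalized count + 1), with 95% intervals from 4 libraries per genotype. The intervals of Sctr and, narrowly, Vipr1 lie to 1 side of 0 before adjustment, and Cckar has the narrowest interval.

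The IP3 receptor channels held the same order per kb, Itpr2 above Itpr3 above Itpr1, in every library, and each overlapped between genotypes. Itpr2 (ENSMUSG00000030287.15, chromosome 6, 146108299 to 146502223) and Itpr3 (ENSMUSG00000042644.8, chromosome 17, 27057304 to 27122223) are the channels that acinar cells are known to rely on at their apical pole. Itpr1 (ENSMUSG00000030102.11, chromosome 6, 108213096 to 108551109) is best known from neurons. Itpr2 had normalized counts of 527.0, 530.8, 488.8 and 435.6 in wild-type and 462.5, 451.5, 545.7 and 621.5 in Daxx-deleted libraries. Itpr3 had 234.4, 294.8, 281.4 and 225.8 in wild-type and 240.5, 231.6, 286.4 and 280.3 in Daxx-deleted libraries. Itpr1 had 182.4, 189.1, 169.4 and 149.6 in wild-type and 160.0, 164.9, 208.3 and 173.2 in Daxx-deleted libraries. In all 3 channels the Daxx-deleted replicates 3 and 4 were above replicates 1 and 2, and in Itpr2 the highest library was Daxx-deleted replicate 4. The log2 fold changes were 0.06 ± 0.12 for Itpr2, 0.01 ± 0.13 for Itpr3 and 0.03 ± 0.13 for Itpr1 (SE), and all 3 intervals lay between -0.27 and 0.33. Exact permutation p-values were 0.629, 0.943 and 0.8286. Each of these signs turned when some single library was left out. An antisense gene, Itpr3os, shares 2.58% of the exon length of Itpr3.

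As shares of their summed level per kb, Itpr2 made up 46.8% ± 2.16 in wild type and 47.7% ± 2.18 in Daxx-deleted libraries (SD, n = 4). Itpr3 made up 40.1% ± 2.69 and 39.2% ± 1.05, and Itpr1 made up 13.2% ± 0.55 and 13.1% ± 1.22. The differences were 0.87, -0.86 and -0.01 percentage points, with exact permutation p-values of 0.543, 0.571 and 0.971, and 1 each after adjustment over 6 ratios. Single libraries moved these differences. For Itpr3 it was -2.10 without wild-type replicate 1 (exact permutation p = 0.0571, 0.171 adjusted over 6 ratios) and -0.05 without wild-type replicate 3. For Itpr2 it was 1.86 without wild-type replicate 1 and -0.20 without Daxx-deleted replicate 4. These shares use the union of annotated exons as length, which is 18.3 kb for Itpr1 against 9.87 kb for its longest transcript, so the level of Itpr1 relative to the others depends on that choice.

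**Figure D4:**
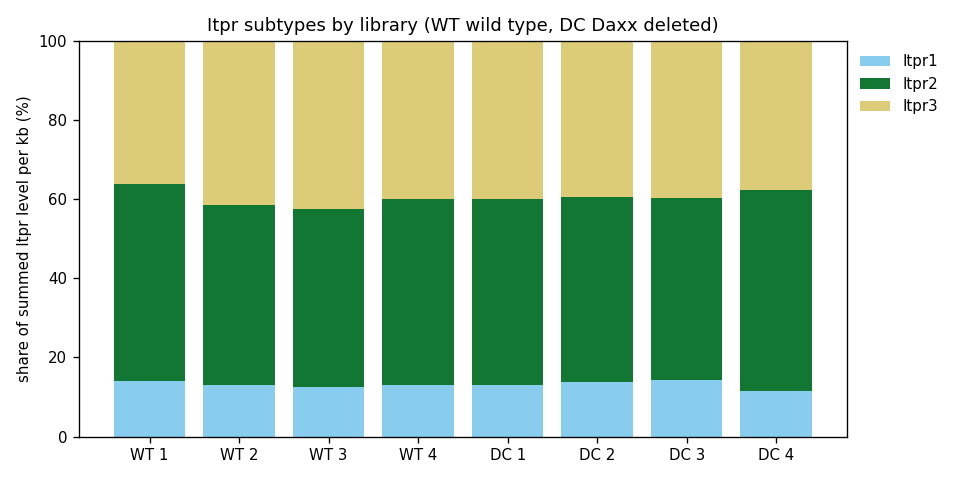
Share of each Itpr channel in the summed level per kb of exon, in percent, for each library (WT wild type, DC Daxx deleted, replicates 1 to 4). Itpr2 makes up 44.9% to 50.9%, Itpr3 36.3% to 42.5% and Itpr1 11.5% to 14.2% across the 8 libraries.

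For store-operated entry, the sensor Stim1 varied little and the channel Orai1 held 1 library apart. Stim1 (ENSMUSG00000030987.5, chromosome 7, 102267806 to 102437319) had normalized counts of 202.7, 181.3, 205.5 and 176.2 in wild-type and 187.9, 166.6, 196.8 and 193.2 in Daxx-deleted libraries. Its coefficients of variation, 7.74% and 7.26%, were near the 7.17% and 7.28% that counting error alone would give. The log2 fold change was -0.04 ± 0.12 (SE, 95% interval -0.30 to 0.22, exact permutation p = 0.657), and it was 0.08 with equal library totals. Orai1 (ENSMUSG00000049686.14, chromosome 5, 123015074 to 123030456) had normalized counts of 20.3, 22.2, 29.2 and 31.0 in wild-type and 20.6, 19.99, 48.9 and 18.9 in Daxx-deleted libraries. Daxx-deleted replicate 3 stood above all other libraries, while Daxx-deleted replicates 2 and 4 lay just under all wild-type libraries and replicate 1 lay inside their range. The log2 fold change was -0.02 ± 0.30 (SE, 95% interval -0.67 to 0.63, exact permutation p = 0.971), a sign that turned with equal library totals, edgeR and DESeq2, and -0.33 without Daxx-deleted replicate 3. The log2 ratio of Stim1 to Orai1 per kb averaged 0.74 ± 0.34 in wild type and 0.73 ± 0.61 in the other group (SD, n = 4, exact permutation p = 1).

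Other genes of the pathway gave no called gene. Of 132 genes on 9 lists 111 were listed and 103 tested. Limma, edgeR and DESeq2 called 0 of them. As limma did not call Daxx either, this does not show that these genes were unchanged. An unadjusted p under 0.05 was found for 3 by limma, 3 by edgeR and 2 by DESeq2, a share near that over all tested genes, which was 2.88%, 2.86% and 2.09%. The log2 fold change was above 0 for 53 and below 0 for 50, with a median of 0.01, against -0.01 for all tested genes. The groups did not overlap for 2 of the 103, both higher in Daxx-deleted libraries, where 0.831% of all tested genes did not overlap in that direction and 1.87% in either.

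Upstream of calcium release, the other secretagogue receptors had 1 gene above 0 and 5 below of 6 tested, with a median of -0.12. Grpr, the receptor of gastrin-releasing peptide, stood at 61.0 ± 11.3 (wild type) and 50.8 ± 15.8 (Daxx deleted) normalized counts, and Sstr2, a somatostatin receptor that restrains secretion, had 54.6 ± 6.46 and 44.1 ± 20.3. The most abundant of them per kb, Glp1r, the receptor of glucagon-like peptide, had 418.4 ± 27.6 and 393.6 ± 58.8. Glp1r and Sstr2 are also known from islets. Of 10 tested islet markers 2 lay above 0 and 8 below, with a median of -0.40, and 0 had an unadjusted limma p under 0.05. The summed level of the 11 listed islet markers ran from 2230 to 7835 normalized counts (wild type) and from 1757 to 7533 (Daxx deleted). None of the 11 was at 0 in any library, and the part of islet cells in the values of these receptors was not tested. Cckbr, the second cholecystokinin receptor, was under the filter with 4.61 ± 3.54 and 4.64 ± 1.33. Of G proteins and phospholipase C, 9 of 12 lay above 0, with a median of 0.04. Gnas, which encodes the stimulatory G protein used by Sctr and Vipr1, had 2407 ± 188.3 and 2503 ± 270.8, and Plcb1, a phospholipase C, had 195.2 ± 26.3 and 173.4 ± 37.5. In the cyclic AMP branch 9 of 15 lay above 0, with a median of 0.05. Rapgef3, a cyclic AMP sensor, had 30.4 ± 4.91 and 41.2 ± 8.09, and the adenylyl cyclase Adcy6 had 560.0 ± 109.8 and 574.7 ± 58.6.

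Around the calcium store, 7 of 11 genes of other release routes and IP3 metabolism lay above 0, with a median of 0.01. Ahcyl1, whose product competes with IP3 at its receptors, had 347.6 ± 19.5 and 364.1 ± 39.1, and the lysosomal channel gene Tpcn1 had 208.0 ± 11.9 and 237.5 ± 44.0. Among other genes of store-operated entry 6 of 7 lay above 0, with a median of 0.12. Orai2, a relative of Orai1, had 240.2 ± 26.7 and 292.9 ± 58.0 with an unadjusted limma p of 0.0806, and Orai3 had 53.1 ± 7.66 and 63.2 ± 8.37. Orai2 thus held more normalized counts per kb (43.9) than Orai1 (11.5) or Orai3 (27.2). Pumps and mitochondrial uptake had 3 of 12 above 0, with a median of -0.01, and Atp2a2, the pump that refills the store, had 1308 ± 148.7 and 1303 ± 137.2.

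Downstream, calcium sensors and protein kinase C had 8 of 18 above 0, with a median of -0.04. Prkce, a protein kinase C, had 105.5 ± 15.8 and 123.1 ± 9.65, and the calmodulin gene Calm3 had 391.5 ± 38.1 and 380.8 ± 44.1. Receptor desensitization had 4 of 8 above 0. Rgs2, which switches Gq proteins off, had 34.5 ± 24.8 in wild type, where replicate 3 stood at 70.1 and the others at 13.0 to 30.0, and 13.1 ± 5.83 in Daxx-deleted libraries (log2 fold change -1.19 ± 0.44 SE, exact permutation p = 0.0857). Grk5, a receptor kinase, had 19.0 ± 2.62 and 28.3 ± 2.999 with no shared range (exact permutation p = 0.0286). Zymogen granule exocytosis had 6 of 14 above 0, with a median of -0.08. Stx2, a membrane syntaxin, had 22.0 ± 2.70 and 34.6 ± 9.59, again with no shared range (exact permutation p = 0.0286), and Rab3d, a granule GTPase, had 1732 ± 182.6 and 1619 ± 250.02. The limma adjusted p was 0.9997 for each of Rgs2, Grk5 and Stx2, which were named for the smallest unadjusted p of their lists.

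**Figure D5:**
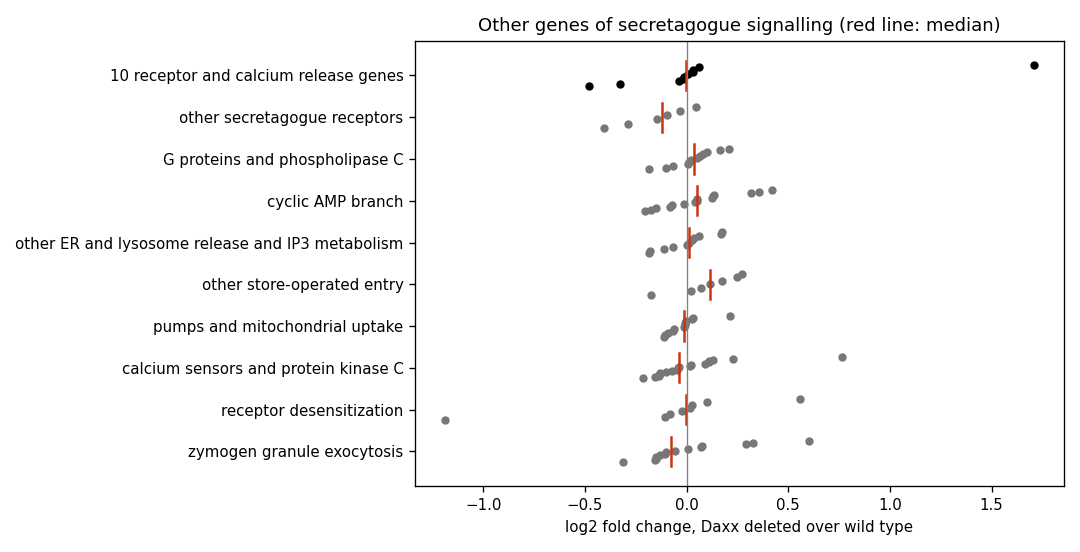
Log2 fold change, Daxx deleted over wild type, for the 10 genes (black) and the tested genes of 9 lists of secretagogue signalling (grey), with a red line at each list's median. Medians lie between -0.12 and 0.12, Sctr is the point at 1.71 and Rgs2 the point at -1.19.

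The tested genes whose levels tracked a member most closely across the 8 libraries were found by Pearson's r of log2 values. They are a description, since the highest of 10468 genes are taken and a shared genotype difference or shared depth can raise r. For Sctr they were Cbx6 (r = 0.97, Spearman's rho = 0.86), Tapbp (0.96, 0.98) and Zfyve19 (0.96, 0.93), and with genotype means removed Got1, Tgfa and Tmem38a, with r from 0.97 to 0.99. Cckar was tracked by Rpn1 (r = 0.97, rho = 1), Bnip2 (0.97, 0.83) and Rab6a (0.95, 0.93), of which Rpn1 and Bnip2 also led with genotype means removed. Itpr3 was tracked by Ubr4 (r = 0.98, rho = 0.93), Wsb2 (0.98, 0.93) and Krt19 (0.97, 0.88). Stim1 had the loosest neighbours, Nelfb (r = 0.92, rho = 0.93), Axin1 (0.92, 0.95) and Rcc1l (0.91, 0.86). Without the 2 libraries farthest from the median of the member, r for these 12 pairs over the 8 libraries was 0.82 to 0.99.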

How the data were processed

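Strand-specific total RNA libraries were made from flash-frozen pancreas, 1 per mouse, per the labels' protocols. The deposited values are a signal per gene and library, read counts that the authors divided by a size factor per library. STAR 2.6.0b, DESeq2 and GRCm38 are named in the submitters' processing notes; no source used here gives the counter, the strand setting or the gene filter. Dividing by 1 step per library gave whole reads for 100% of entries within a tolerance of 0.001, and all listed genes reached 5 reads in 4 or more libraries. Reads per library ran from 6 for Sctr to 3794 for Cckar, which sets counting error but not the spread between mice.

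Genes with a mean of at least 10 entered limma 3.58.1 (R 4.3.3, trend option) on log2(value + 1) with genotype as the only term, with two-sided p-values and Benjamini-Hochberg adjustment over 10468 genes. Fold changes on this scale understate those of low genes. Single values and ratios were tested by exact two-sided permutation over 70 relabellings. Ratios with a library left out have fewer relabellings, so their smallest possible p is larger. The limma test was tested on simulated data. Alternatives were other pseudocounts, scalings and filters, a Y-linked covariate, each library left out, and count tests on the recovered reads (edgeR 4.0.16 quasi-likelihood; DESeq2 1.42.0). Lengths and coordinates are from GENCODE M21, matched for 11781 of 11789 gene identifiers. Libraries of 1 genotype differed by chi-square statistics of 6.81 to 25.3 per degree of freedom, so none was a repeat. Replicates were numbered in accession order.

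The members and lists were chosen with earlier results of these data known. The named genes are the 10 members, Daxx, the 3 closest genes of 4 members, and some genes of each list. The latter were taken from the 2 genes with the smallest unadjusted p and the most abundant gene per kb. Not all of these were named. Left out were, among others, Erlin2 and Atp2c2, with the smallest unadjusted p of their lists, and Saraf and Grk2, the most abundant of theirs. Vipr2, Cckbr, Orai3 in its per kb level, Krt19 as a marker, Sox9 and Cftr were named for their role, after their values were seen. Muc1 and Pkhd1 were named for their weight in the ductal sum, also after their values were seen.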

Additional observations from a re-analysis of the deposited data

Results flagged for a closer look

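In 32 groups of 4 values, each gene and ratio in each genotype, 3 had a library farther from the others than Dixon's test allows at 95%, where chance gives 1.6. The ratios reuse the values of the genes, so the groups are not independent, and whether 3 exceeds 1.6 was not tested. Orai1 was at 48.9 normalized counts in Daxx-deleted replicate 3 against 18.9 to 20.6 in the other 3. Chrm1 was at 13.5 in Daxx-deleted replicate 3 against 10.3 to 10.8, on 10 to 13 reads per library. The Itpr2 share was 50.9% in Daxx-deleted replicate 4 against 46.1% to 46.9%.

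In Itpr1 and Itpr2 the genotype difference ran in opposite directions at the 2 levels of Y-linked reads. Where these reads were near 0, both Daxx-deleted libraries were below both wild-type libraries, and where they were high, both were above. The change of direction was not particular to these genes. Mean log2 differences changed sign the same way in Itpr3 (-0.15 near 0, 0.17 high), Chrm3 (-0.12, 0.091), Stim1 (-0.11, 0.035) and Orai1 (-0.059, 0.020). In Cckar they changed the other way (0.10, -0.040). For Itpr1 and Itpr2 the 2 directions were tested against each other. The difference of the log2 fold changes was 0.45 ± 0.26 (SE) for Itpr1 and 0.55 ± 0.22 for Itpr2, with unadjusted limma p-values of 0.108 and 0.0238 and adjusted p-values of 0.623 and 0.581. This interaction was chosen after seeing the data, and over all 10468 genes 8.33% had an unadjusted interaction p under 0.05 and 0 an adjusted one. With 2 libraries per cell, the level of Y-linked reads and any other property of those libraries cannot be told apart.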

How the results depend on the processing

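Limma in its main setting did not call Daxx, so missing calls do not show that genes were unchanged. No member and no other pathway gene was called under any of the 17 alternatives. Sctr kept its direction in all 16 in which it was tested (log2 fold change 1.14 to 1.92, smallest adjusted p 0.0619, by DESeq2), Chrm1 in all 16 (-0.74 to -0.29) and Vipr1 in all 17 (-0.39 to -0.20). As the Sctr groups did not overlap, leaving out a library or changing the pseudocount or filter could not turn its sign. Sctr, Chrm1 and Orai1 did not enter with a minimum mean of 50. Members near 0 changed sign: with equal library totals, where the median of all genes moved to 0.11, Chrm3 was 0.11, Stim1 0.082 and Orai1 0.099. With edgeR Chrm3 was 0.0073 and Orai1 0.075, and with DESeq2 Chrm3 was 0.0035 and Orai1 0.075. Leaving out each library gave -0.024 to 0.072 for Cckar, -0.13 to 0.069 for Chrm3, -0.051 to 0.076 for Itpr1, -0.027 to 0.13 for Itpr2, -0.056 to 0.072 for Itpr3, -0.078 to 0.012 for Stim1 and -0.33 to 0.11 for Orai1. It gave differences of -0.37 to 0.55 percentage points for the Itpr1 share, -0.20 to 1.86 for the Itpr2 share and -2.10 to -0.05 for the Itpr3 share, the last with no change of sign, and log2 differences of -0.17 to 0.28 for Stim1 over Orai1, -0.066 to 0.15 for Cckar over Chrm3 and 1.70 to 2.14 for Sctr over ductal markers. The cause of these sign changes was not tested. No paired analysis was made, since each library came from a different mouse and the labels pair no wild-type mouse with a Daxx-deleted one. Counting error weighs most on Sctr, Chrm1 and Orai1, with at most 47 reads in a library.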
